A study of Mus musculus with 6 samples.

Results

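Nuclear genes named as subunits of the oxidative phosphorylation machinery were followed in mouse embryonic stem cells (mESCs) grown in 3 media. Members were taken by name: symbols of the Nduf a, b, c, s and v series (complex I), Sdha to Sdhd (complex II), the Uqcr genes (complex III), the Cox4 to Cox8 genes (complex IV) and the Atp5 genes (complex V), with a mean of at least 1 TPM over the 6 libraries. TPM is a level corrected for library size and for the summed exon length of a gene. Levels of different genes therefore depend on that length as well as on their transcripts. Of 81 symbols that matched, 78 were members, out of 28584 genes in the table. Complex I had 36 members, complex II 4, complex III 8, complex IV 13 and complex V 17. The lowest member was Cox6a2 with a mean of 1.34 TPM, and the highest symbol left out was Cox7b2 with 0.528 TPM, ahead of Cox8c with 0.336 and Cox8b with 0.0763.

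The mESCs came from C57BL/6X129S6 blastocysts and had been kept on inactivated mouse embryonic fibroblasts before they were moved to the test media. LIF-ESCs were grown with 1000 U/mL of leukemia inhibitory factor, the usual self-renewal cytokine for mouse ESCs. OSM-ESCs were grown with oncostatin M, a cytokine of the same family, at the 10 ng/mL given in the methods of the study, and -LIF-ESCs in the basic medium with neither. Each group had 2 poly(A) RNA libraries, made at passage 10 by those methods. All 3 groups share the origin of the cells and the earlier feeder culture, and the study calls its libraries biological replicates, while the labels do not say whether they came from separate cultures. If they did not, each p-value measures only the spread between these libraries, which may be technical. One protocol label names ovaries as the RNA source, whereas the sample labels name embryonic stem cells. The 7 ESC markers, among them Pou5f1, Nanog and Sox2, were detected in every group.

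Oxidative phosphorylation takes place in the inner mitochondrial membrane. Complexes I and II pass electrons from NADH and succinate to ubiquinone, complex III passes them to cytochrome c, complex IV hands them to oxygen, and complexes I, III and IV pump protons that complex V, the ATP synthase, uses to make ATP. The mitochondrial genome encodes a few core subunits, and the nucleus encodes the rest, including all of complex II. Naive mouse ESCs are known to use both glycolysis and respiration, and the balance shifts as the cells leave that state.

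The members together held 1.13 to 1.18% of all TPM in each library. Their summed level was 11726 and 11836 TPM in the -LIF libraries, 11278 and 11407 in the LIF libraries and 11724 and 11456 in the OSM libraries. Both LIF libraries lay below those of the other groups. By complex the sums moved unequally: complex III held 1474 and 1491 TPM in -LIF against 1191 and 1211 in LIF and 1240 and 1223 in OSM. Complex II was likewise highest in -LIF, with 526 and 522 TPM against 478 and 475 in LIF and 472 and 460 in OSM. Complex V lay the other way, with 3559 and 3583 TPM in -LIF, 3710 and 3708 in LIF and 3729 and 3645 in OSM. These sums are in TPM and were described, not tested. The factors of the median-ratio rescaling used below were 0.927 and 0.926 in -LIF, 1.04 and 1.05 in LIF and 1.07 and 1.04 in OSM. Divided by these factors, the complex V sums of the LIF and OSM libraries lie below those of -LIF, so its direction holds in TPM only.

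Single subunits of 1 complex differed widely in level. In complex V the highest mean over the 6 libraries was that of Atp5b, the catalytic beta subunit, with 1061 TPM, and the lowest that of Atp5s, a coupling factor, with 8.19 TPM. In complex IV, Cox8a stood highest with 767 TPM and Cox6a2 lowest. Complex I ran from 14.3 TPM for Ndufb2 to 218 for Ndufb6, complex II from 74.6 for Sdhc to 167 for Sdhd, and complex III from 78.7 for Uqcrh to 303 for Uqcr10. TPM divides by the summed exon length of a gene, which ran from 231 to 8086 bases. The 18 members of at least 3000 bases had a median of 72.8 TPM and the 59 shorter ones of 127 TPM. How long the transcripts used in these cells are was not measured, so the order of genes by TPM is uncertain. In reads recovered from TPM and exon length, Ndufb2, with 5628 bases, had 627 and 526 in -LIF. Ndufa1, with 419 bases and 140 and 142 TPM in -LIF, had 664 and 555.

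LIF against -LIF compared cells grown with the cytokine to cells grown without it. The study saw only differentiated colonies, of large and flat cells, in its -LIF-ESCs. Cytokine and cell state therefore differ together, here and in OSM against -LIF. Which of them the changes follow was not tested. Of the 78 members, 29 were lower and 18 higher in LIF-ESCs at adjusted p under 0.05 (limma over 18556 genes), and 31 did not pass. Over all genes tested, 25.9% were lower and 42.2% higher, and all 78 members passed the level filter. The median log2 fold change of the members was −0.075, and that of all genes tested 0.17. Most changes were small: 2 members passed the additional threshold of 2-fold used by the study, Ndufs5 and Cox6a2, against 21.4% of all genes. Cox6a2, at 0 and 0.316 TPM in -LIF, met the level rule and the filter only through the LIF and OSM libraries. The selection therefore favoured its higher call, here and in OSM. The libraries of the LIF and -LIF groups did not overlap for 64 members, with 40 lower and 24 higher in LIF, while over all genes 33.4% were lower and 50.9% higher without overlap.

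OSM against -LIF gave 25 members lower and 21 higher. The background was 25.4% lower and 42.9% higher, with a median of −0.022 for the members and 0.18 for all genes. The same 2 members passed 2-fold, against 22.0% of all genes. Without overlap of the libraries, 35 members were lower and 25 higher, where 32.4% and 51.5% of all genes were. Both comparisons use the same -LIF libraries, so the second is no independent repeat of the first: 18 members were called higher in both and 25 lower in both, 3 higher in OSM only and 4 lower in LIF only, and 28 in neither, where the difference between being called in one and in both was not tested.

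**Figure D1:**
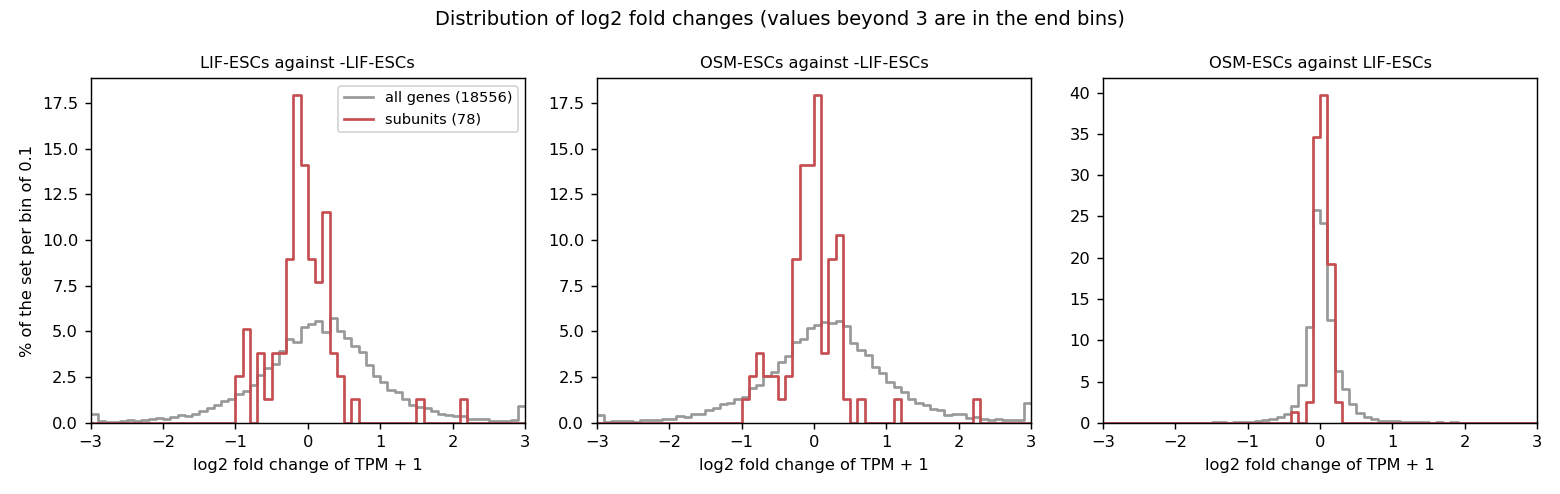
Share of features in each 0.1-wide bin of log2 fold change (x axis, log2 units), for the 78 subunits and for all 18556 genes tested, in each of the 3 comparisons. Against -LIF the subunits gather near 0 with a tail on the lower side, around medians of −0.075 and −0.022, and all genes around 0.17 and 0.18 with longer tails, and in OSM against LIF the subunits lie between −0.39 and 0.22.

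The direction of the small changes depended on the scale. When libraries were rescaled by the median ratio over genes, the median of all genes moved to 0.017 in LIF and 0.020 in OSM, and the median of the members to −0.244 and −0.207. On that scale 45 members were lower and 8 higher in LIF against -LIF, where 33.0% and 34.5% of all genes were, and 46 lower and 11 higher in OSM, where 32.9% and 34.4% were. All 29 and all 25 members called lower in TPM were also called lower after rescaling. Of those called higher in TPM, only Atp5a1, Atp5e, Atp5j, Cox6a2, Ndufb2, Ndufs5, Ndufv1 and Sdha remained higher in LIF, and those 8 with Cox8a, Ndufa2 and Uqcrq in OSM. Voom on recovered reads, which could be run for 67 members, gave 47 lower and 6 higher in LIF, where 34.9% and 35.1% of all genes were, and 45 lower and 9 higher in OSM, where 35.6% and 35.5% were. Of the members that remained higher after rescaling, Atp5j was not called with voom in LIF (log2 0.089, adjusted p = 0.0728), and Ndufv1 and Cox8a could not be tested. The other calls held. Cox6a2 met the filter only through the LIF and OSM libraries, and Ndufs5 has a near-identical pseudogene, given below. Past 2-fold, 4 members were called in LIF after rescaling (20.7% of all genes) and 7 with voom (27.1%), and in OSM 5 (21.3%) and 5 (28.0%). Those added to Ndufs5 and Cox6a2 after rescaling were lower, Uqcrh and Cox7a2 in LIF and Uqcrh, Uqcrfs1 and Sdhc in OSM. The lower calls below therefore hold on both scales, and the higher calls of single members named below are given with their result after rescaling.

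**Figure D2:**
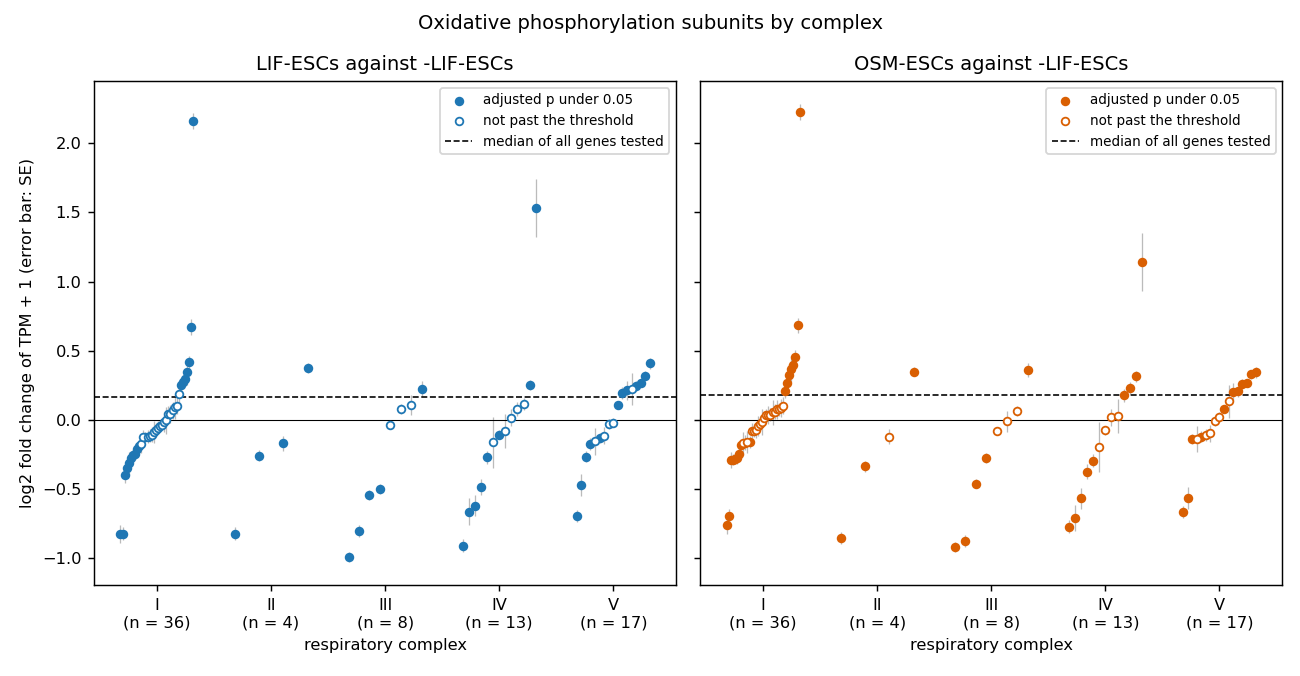
Log2 fold change of each subunit (points, y axis in log2 units of TPM + 1) in LIF and in OSM against -LIF, grouped by respiratory complex. Filled points passed adjusted p under 0.05, bars are SE and the dashed line is the median of all genes. Complexes II and III have the lowest medians, −0.21 and −0.27 in LIF, and Ndufs5 and Cox6a2 stand apart at the top.

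In complex III, 4 of 8 members fell in both comparisons and 1 rose in TPM (25.9% and 42.2% of all genes in LIF, 25.4% and 42.9% in OSM). After rescaling 5 were lower and none higher in LIF (33.0% and 34.5% of all genes), and 6 were lower and 1 higher in OSM (32.9% and 34.4%). Uqcrh, the hinge protein next to cytochrome c1, had 116 and 117 TPM in -LIF, 57.6 and 58.7 in LIF and 62.4 and 60.0 in OSM. All 4 cytokine libraries lay far below both -LIF libraries. Its log2 fold change was −0.99 (SE 0.037, adjusted p = 1.94e-05, limma) in LIF and −0.92 (adjusted p = 2.27e-05) in OSM, the lowest of all members in each comparison. Uqcrfs1, the Rieske iron-sulfur protein that takes electrons from ubiquinol, had 212 and 221 TPM in -LIF, 121 and 126 in LIF and 120 and 115 in OSM, with changes of −0.81 and −0.87. Uqcr10, a small subunit, fell from 382 and 372 TPM in -LIF to 254 and 262 in LIF and 276 and 270 in OSM. Uqcr11 fell from 182 and 179 TPM to 128 and 127 in LIF and 153 and 145 in OSM.

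The large core proteins of complex III did not move with these. Uqcrc1 had 114 and 118 TPM in -LIF, 123 and 121 in LIF and 119 and 123 in OSM, and Uqcrc2 had 154 and 150 TPM in -LIF, 148 and 149 in LIF and 144 and 143 in OSM. Neither passed the test in TPM (adjusted p = 0.109 and 0.364 in LIF, 0.183 and 0.0614 in OSM), but Uqcrc2 was called lower in both after rescaling and Uqcrc1 in OSM. Uqcrq was the member that rose, from 156 and 150 TPM to 172 and 187 in LIF (log2 0.23) and 192 and 201 in OSM (log2 0.36). After rescaling it stayed higher in OSM and not in LIF.

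In complex II, succinate dehydrogenase, the 4 subunits went in opposite directions. Sdha, the flavoprotein that oxidizes succinate, rose from 135 and 136 TPM in -LIF to 175 and 178 in LIF and 177 and 169 in OSM, by 0.38 and 0.35 on the log2 scale, and was higher after rescaling too. Sdhc, a membrane anchor with the heme, fell from 106 and 106 TPM to 57.3 and 61.8 in LIF and 58.3 and 58.2 in OSM (log2 −0.82 and −0.85). Sdhd, the other anchor, fell from 190 and 192 TPM to 164 and 155 in LIF and 151 and 152 in OSM. Sdhb, the iron-sulfur subunit, had 94.1 and 87.3 TPM in -LIF, 81.3 and 79.5 in LIF and 86.1 and 80.5 in OSM, lower in LIF (log2 −0.17, adjusted p = 0.0371) and short of the threshold in OSM (log2 −0.12, adjusted p = 0.101). The gap between Sdha and Sdhc was therefore wider in every library with LIF or OSM than in -LIF.

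**Figure D3:**
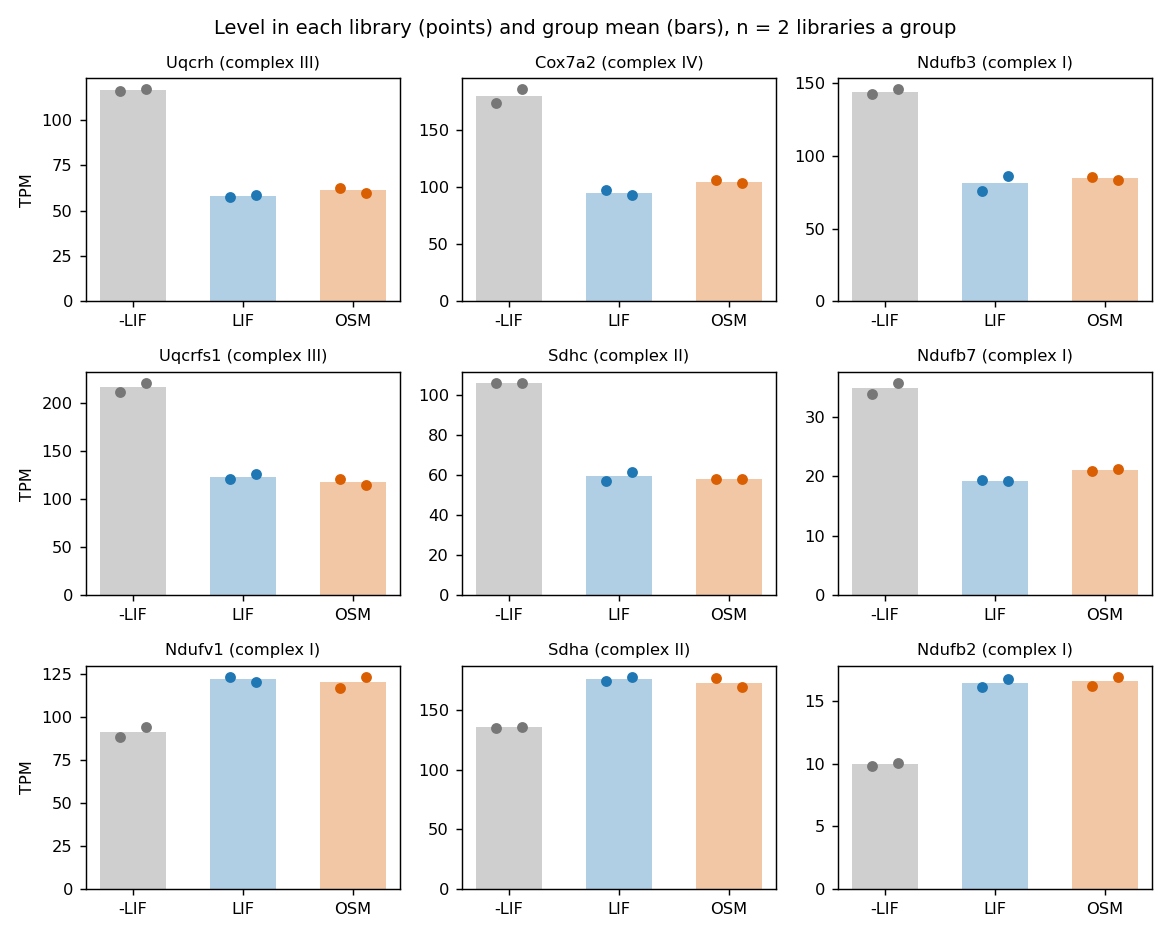
TPM in each of the 6 libraries (points, y axis from 0) for 9 subunits of complexes I to IV. Uqcrh, Cox7a2, Ndufb3, Uqcrfs1, Sdhc and Ndufb7 are lower in all 4 libraries with LIF or OSM than in both -LIF libraries, and Ndufv1, Sdha and Ndufb2 higher.

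In complex I, 11 of 36 members fell and 7 rose in LIF in TPM (25.9% and 42.2% of all genes), and 10 fell and 8 rose in OSM (25.4% and 42.9%). After rescaling 21 were lower and 3 higher in LIF (33.0% and 34.5% of all genes), and 20 lower and 4 higher in OSM (32.9% and 34.4%). The subunits that bind NADH and carry electrons were split. Ndufv1, which holds the flavin where NADH is oxidized, rose from 88.1 and 93.8 TPM in -LIF to 123 and 120 in LIF and 117 and 123 in OSM (log2 0.42 and 0.39), also after rescaling. Ndufs1, the largest iron-sulfur subunit, fell, from 42.6 and 42.3 TPM to 39.2 and 38.6 in LIF and 37.0 and 37.5 in OSM. Ndufv2, Ndufs3, Ndufs7 and Ndufs8, also core subunits, did not pass the test in TPM in either comparison, with log2 values between −0.13 and 0.10. Ndufs3 and Ndufs7 were called lower after rescaling in both.

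Among the accessory subunits of complex I, Ndufb3 and Ndufb7, both of the membrane arm, had the lowest log2 fold changes in each comparison. Ndufb3 had 142 and 146 TPM in -LIF, 75.9 and 86.3 in LIF and 85.6 and 83.6 in OSM, with changes of −0.83 (SE 0.066, adjusted p = 0.000205) and −0.76. Ndufb7 fell from 33.9 and 35.7 TPM in -LIF to 19.3 and 19.1 in LIF and 20.9 and 21.3 in OSM (log2 −0.82 and −0.70). Other Ndufb genes differed in direction: Ndufb5 fell by less (log2 −0.19 and −0.25), some did not pass, and Ndufb2, Ndufb6 and Ndufb11 had higher calls, that of Ndufb11 in TPM only. Ndufb2 rose from 9.84 and 10.0 TPM to 16.1 and 16.7 in LIF and 16.2 and 16.9 in OSM (log2 0.67 and 0.68), on both scales. Its exons overlap those of Braf and Gm16272 on the opposite strand and Gm42420 on the same strand, and the strand setting of the counting is not given in the sources used here. The same limit holds for other members. Exons of 27 overlap another gene, for 24 of these on the opposite strand, among them Atp5a1, Ndufa2, Ndufb6, Ndufb11, Ndufs1 and Cox5a. What the overlaps add to each level was not tested. Ndufb6, the highest of complex I, had 186 and 199 TPM in -LIF, 203 and 237 in LIF and 243 and 240 in OSM, and passed in OSM only (adjusted p = 0.0151), not after rescaling. Ndufa2, a matrix-arm subunit, rose from 153 and 164 TPM to 191 and 197 in LIF and 213 and 222 in OSM. It stayed higher after rescaling in OSM and not in LIF. Ndufa4 carries a complex I name but is known as a complex IV subunit: it fell from 166 and 164 TPM to 130 and 129 in LIF and 141 and 132 in OSM.

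Ndufs5, an accessory subunit of complex I, had the highest log2 fold change of the members in TPM. It had 19.7 and 20.5 TPM in -LIF, 89.5 and 97.3 in LIF and 100.2 and 95.6 in OSM. The groups were far apart, at a log2 fold change of 2.16 (SE 0.056, adjusted p = 7.57e-06) in LIF and 2.23 (adjusted p = 6.27e-06) in OSM, and at 1.99 and 2.05 after rescaling. Ndufs5 lies at chr4:123712710-123718202 on the minus strand (mm10, GENCODE M21). The annotation also holds BC002163, a processed pseudogene at chr16:42955631-42955949 on the plus strand, 99.4% identical over the 318 bases of the Ndufs5 coding sequence. The table lists them as separate genes. Bases 61 to 140 of the coding sequence are shown with the aligned pseudogene bases because they hold both differences, in capitals:
Ndufs5: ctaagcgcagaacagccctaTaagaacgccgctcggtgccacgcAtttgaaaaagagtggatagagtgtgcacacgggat
BC002163: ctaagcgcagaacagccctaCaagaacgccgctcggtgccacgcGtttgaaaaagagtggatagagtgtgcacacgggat
The substitutions are T81C and A105G, counted from 1 at the first base of the coding sequence with the Ndufs5 base first. A read that spans neither position matches both genes equally well in this stretch.

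BC002163 moved opposite to Ndufs5, with 220 and 200 TPM in -LIF, 118 and 116 in LIF and 110 and 129 in OSM. In whole reads, which can be recovered from TPM and exon length, Ndufs5 had 192 and 164 reads in -LIF, 722 and 755 in LIF and 871 and 997 in OSM. BC002163 had 793 and 595, then 353 and 334, then 355 and 499. The share of the pair assigned to Ndufs5 was 19.5 and 21.6% in -LIF, 67.2 and 69.3% in LIF and 71.0 and 66.6% in OSM. With both genes added, the log2 fold change in TPM was 0.48 (SE 0.047, adjusted p = 0.000464) in LIF and 0.53 (adjusted p = 0.0003) in OSM, no longer past 2-fold. The sum was not fitted after rescaling, so these values compare with 2.16 and 2.23 for Ndufs5 alone. How the counting treated reads that match several genes is not given in the sources used here, so the level of Ndufs5 alone is uncertain.

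**Figure D4:**
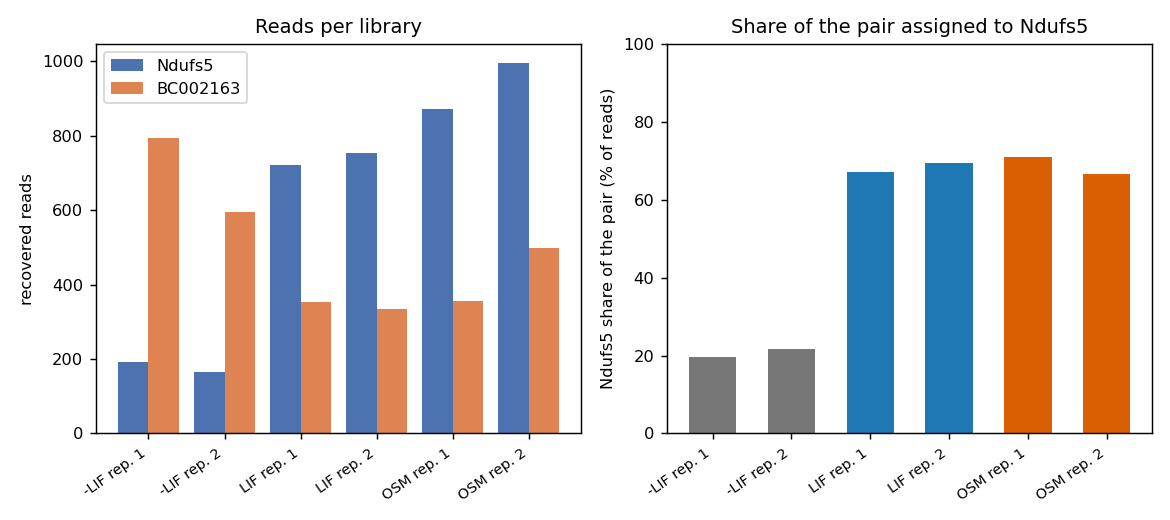
Recovered reads of Ndufs5 and of its pseudogene BC002163 in each library, and the percent of their summed reads assigned to Ndufs5. The percent is near 20 in both -LIF libraries and between 66.6 and 71.0 in the 4 others, while the pseudogene reads fall.

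Near-identical copies were searched for 77 members. At 90% identity or more 33 had one, and at 95% or more 20 did. For 15 members with such copies in the table and with recovered reads, levels were added as for Ndufs5. Members without recovered reads were left out, among them Ndufa12, called lower in both comparisons. Its copy Gm15920, 99.5% identical, had 210 and 228 TPM in -LIF, 105 and 95.7 in LIF and 117 and 104 in OSM. What adding it would do was not tested. Among the members added, apart from Ndufs5, the largest shift in a log2 fold change was 0.0893, and 3 calls changed. Cox7c, the one with that shift, went from −0.62 to −0.71 in LIF with its copies. Atp5l lost its higher call in both comparisons (adjusted p = 0.0955 and 0.0873), a call it did not have after rescaling either (log2 0.047 and 0.023). Atp5g1 became lower in OSM (log2 −0.17, adjusted p = 0.0115).

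In complex IV, cytochrome c oxidase, 6 of 13 members fell and 2 rose in LIF in TPM (25.9% and 42.2% of all genes), and 5 fell and 4 rose in OSM (25.4% and 42.9%). After rescaling 7 were lower in each (33.0% of all genes in LIF and 32.9% in OSM), with 1 higher in LIF (34.5%) and 2 in OSM (34.4%). One member, Cox6c2, is annotated as a processed pseudogene and passed in neither comparison. The small subunit Cox7a2 had 174 and 186 TPM in -LIF, 97.3 and 93.6 in LIF and 107 and 104 in OSM. That is a log2 fold change of −0.91 (SE 0.047, adjusted p = 4.73e-05) in LIF and −0.77 in OSM. Cox7a1, known as the heart and muscle form of the same subunit, fell as well, from 31.7 and 37.2 TPM to 21.9 and 20.7 in LIF and 21.8 and 19.4 in OSM (log2 −0.66 and −0.71). In each library Cox7a2 stood well above Cox7a1. Cox7c fell from 420 and 439 TPM to 264 and 295 in LIF and 306 and 274 in OSM.

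The Cox6 subunits differed between isoforms. Cox6a1, the ubiquitous form, had 555 and 515 TPM in -LIF, 581 and 578 in LIF and 631 and 625 in OSM. It passed the test in OSM (log2 0.23, adjusted p = 0.0048) and not in LIF (log2 0.12, adjusted p = 0.0554), and in neither after rescaling. Cox6a2, the heart and muscle form, had 0 and 2 reads in -LIF, 14 and 15 in LIF and 13 and 10 in OSM. The ratio of read rates was 14.9 (exact 95% interval 3.78 to 129) in LIF and 9.83 (2.43 to 86.0) in OSM, intervals that cover counting error only. Its fitted log2 values of 1.53 (adjusted p = 0.00166) and 1.14 (adjusted p = 0.00516) depend on the pseudocount, and were 1.48 and 1.08 after rescaling. At 0 to 2.45 TPM it was a trace beside Cox6a1 in every library, and its exon overlaps Itgad on the opposite strand. It became a member only through its level in the LIF and OSM libraries. Cox6b1, a subunit on the side of cytochrome c, fell from 296 and 278 TPM to 195 and 214 in LIF and 222 and 220 in OSM (log2 −0.48 and −0.37). Cox6b2, known as the testis form, had 35.9 and 32.4 TPM in -LIF, 28.8 and 36.1 in LIF and 32.9 and 36.9 in OSM, with overlapping groups.

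Cox8a, the highest subunit of complex IV, rose from 661 and 679 TPM in -LIF to 821 and 775 in LIF and 825 and 841 in OSM (log2 0.25 and 0.31). It remained higher after rescaling in OSM and not in LIF. Cox5a and Cox5b, subunits around the catalytic core, had changes of −0.27 and −0.11 in LIF and −0.29 and −0.076 in OSM, all past the test but Cox5b in OSM. Cox7b had 163 and 170 TPM in -LIF, 167 and 170 in LIF and 179 and 159 in OSM, and passed in neither comparison, but was called lower after rescaling. Cox7b2 stayed between 0 and 0.913 TPM, Cox8c between 0 and 1.41, and Cox8b was listed at 0 in 5 of 6 libraries.

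**Figure D5:**
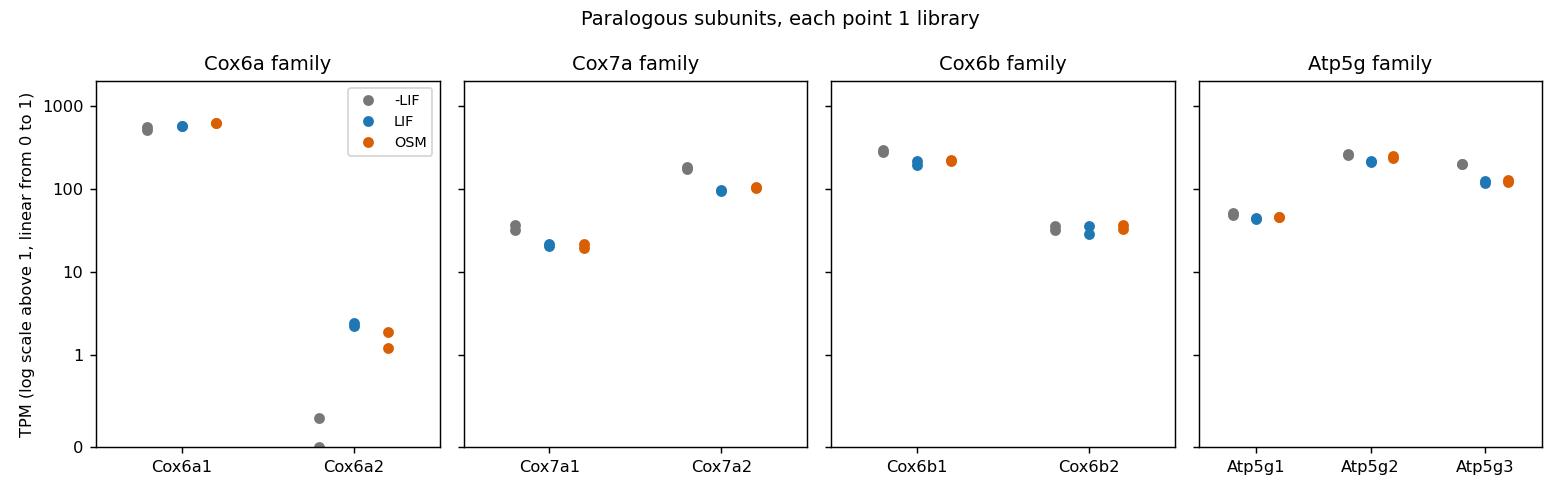
TPM of the members of the Cox6a, Cox7a, Cox6b and Atp5g isoform families in each library, on an axis that is linear from 0 to 1 TPM and logarithmic above. Cox7a2 and Cox7a1 are both lower with LIF or OSM, Cox6b1 is lower while Cox6b2 overlaps between groups, and Atp5g3 falls most of the Atp5g genes.

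In complex V, 7 of 17 members rose and 5 fell in LIF in TPM (42.2% and 25.9% of all genes), and 7 rose and 4 fell in OSM (42.9% and 25.4%). After rescaling the balance turned, to 3 higher and 9 lower in LIF (34.5% and 33.0% of all genes) and 3 higher and 10 lower in OSM (34.4% and 32.9%). The subunits of the catalytic head went both ways. Atp5a1, the alpha subunit, had 732 and 724 TPM in -LIF, 917 and 902 in LIF and 885 and 864 in OSM, with changes of 0.32 and 0.26 that stayed higher after rescaling. Atp5e, the epsilon subunit of the central stalk, rose from 80.9 and 84.6 TPM to 109 and 111 in LIF and 107 and 103 in OSM (log2 0.41 and 0.34), and was higher after rescaling (0.24 and 0.16). Atp5b rose by little, from 1015 and 1017 TPM to 1089 and 1097 in LIF and 1078 and 1067 in OSM (log2 0.11 and 0.078), and after rescaling its sign turned, to a lower call in OSM. Atp5c1, the gamma subunit that turns within the head, fell from 242 and 252 TPM to 226 and 224 in LIF and 228 and 220 in OSM. Atp5j, a part of the peripheral stalk, rose from 78.5 and 77.7 TPM to 93.6 and 95.1 in LIF and 99.2 and 97.8 in OSM, and was higher after rescaling (0.098 and 0.15). With voom it was called higher in OSM and not in LIF. This gene and Gabpa lie head to head and their exons overlap.

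The 3 Atp5g genes encode the same mature c subunit of the proton-carrying ring. Atp5g3 fell from 198 and 200 TPM in -LIF to 118 and 126 in LIF and 122 and 127 in OSM, by 0.70 and 0.67 on the log2 scale. Atp5g2 fell from 259 and 262 TPM to 219 and 214 in LIF and 247 and 233 in OSM (log2 −0.27 and −0.12). Atp5g1, the lowest of them, had 48.3 and 50.7 TPM in -LIF, 43.4 and 44.1 in LIF and 45.4 and 46.1 in OSM, and was called lower in LIF (log2 −0.17, adjusted p = 0.0143) but not in OSM (adjusted p = 0.0628). All 3 were below -LIF in every cytokine library. Atp5s had 7.93 and 6.96 TPM in -LIF, 8.31 and 9.41 in LIF and 9.03 and 7.52 in OSM, and did not pass.

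OSM against LIF asked whether the cytokines differ. No member passed at adjusted p under 0.05 (limma), where 0.463% of all genes were higher and 0.129% lower in OSM, and 0.0808% passed 2-fold. At an unadjusted p under 0.05 there were 12 members, all higher in OSM, and 15.3% of all genes, 1818 higher and 1020 lower. The direction depended on the scale: after rescaling 8 members were higher and 1 lower at that p, and with voom 8 and 4. With voom on the recovered reads of 67 members, 2 were called higher, Uqcr11 (log2 0.21, adjusted p = 0.0485) and Atp5g2 (log2 0.13, adjusted p = 0.0409), where 4.79% of all genes were. In TPM the lowest p was that of Uqcr11, with a log2 difference of 0.22 (95% interval 0.13 to 0.31, adjusted p = 0.0826), followed by Atp5g2 at 0.15, Ndufa2 at 0.16, Ndufa5 at 0.16 and Ndufb10 at 0.21. For 77 of 78 members the 95% interval of the difference lay within 0.5 on the log2 scale either way. Cox6a2, with few reads, was the exception, at −0.39 with an interval of −0.93 to 0.14.

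The other genes of the system were read from lists, beside 42.2% higher and 25.9% lower among all genes in LIF and 42.9% and 25.4% in OSM (34.5% and 33.0%, and 34.4% and 32.9%, after rescaling). Of 13 subunits encoded by the mitochondrial genome, 5 were higher and 4 lower in LIF and 4 higher and 4 lower in OSM, which became 4 and 5 in LIF and 3 and 6 in OSM after rescaling. They included mt-Nd6 at 1.02 and 0.94 and mt-Atp8 at −0.67 and −0.59 on the log2 scale, in poly(A) libraries that need not capture each mitochondrial transcript alike. Of 47 assembly factors, which build the complexes without staying in them, 24 were higher and 12 lower in LIF and 22 and 13 in OSM. After rescaling these were 19 and 17 in both comparisons. The complex I factors Tmem126b (log2 1.49 and 1.34) and Tmem186 (1.37 and 1.28) rose most, and Sdhaf4, which serves Sdha, fell (−1.17 and −1.14). Of 16 tested regulators of mitochondrial biogenesis, 10 were higher and 1 lower in LIF and 11 and 1 in OSM. After rescaling 7 and 8 were higher and 2 lower in each. Lrpprc, which stabilizes mitochondrial mRNA, had the highest values, 0.97 and 0.86.

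Among 14 enzymes of the tricarboxylic acid cycle, 4 were higher and 5 lower in LIF and 4 and 6 in OSM, and after rescaling 9 and 10 were lower and 1 higher in each. Fh1, fumarase, fell most, by 1.18 and 1.16 on the log2 scale. Of 9 related genes whose symbols the name patterns miss, which are subunits, their paralogs, the electron carrier Cycs and the ATP synthase inhibitor Atpif1, 1 was higher and 5 lower in LIF and 1 and 4 in OSM. The higher one was Atpif1 (log2 0.19 and 0.28). After rescaling none was higher, and 8 were lower in LIF and 7 in OSM. Cox4i2, known as the hypoxia-responsive form of complex IV subunit 4, had 61 and 65 reads in -LIF, 7 and 2 in LIF and 1 and 5 in OSM, with log2 values of −2.48 and −2.75. Ndufa4l2, also known to respond to hypoxia, had 38.6 and 35.6 TPM in -LIF, 11.0 and 9.31 in LIF and 1.90 and 2.86 in OSM. It differed between OSM and LIF by −1.73 on the log2 scale (adjusted p = 0.03).

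Promoters were read from RefSeq (GRCm38.p6), 250 bases before to 50 after each gene start, and 63 members matched with 68 promoters. A GABPA (ETS) motif, CCGGAAG on either strand, was in 23.5% of them and in 8.86% of 32851 promoters. The NRF1 motif GCGCATGCG was in 11.8% and 1.75%, the YY1 motif AAGATGGCG in 10.3% and 1.40%, the ERR motif TCAAGGTCA in 2.94% and 0.423%, and TATAAA in 8.82% and 13.6%. The 32851 promoters were not limited to genes detected here and not matched for base composition. Whether these shares are particular to the subunits was therefore not tested. No matches of different motifs overlapped among the members. Of the 16 members with the ETS motif, 4 were higher and 6 lower in LIF in TPM (42.2% and 25.9% of all genes). In OSM 6 were higher and 5 lower (42.9% and 25.4%). LIF values ran from −0.99 for Uqcrh to 0.41 for Atp5e. After rescaling all the lower calls held. Of the higher calls only those of Atp5e and Atp5j remained in LIF, and those with Cox8a in OSM. Windows of 30 bases from 5 of them are shown because their genes moved in opposite directions with the same motif, in 1 or the other orientation. The motif is in capitals and each window is on the strand of the gene:
Uqcrh: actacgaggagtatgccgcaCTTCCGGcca
Ndufb7: agcctagatgacCCGGAAGacactgaaggg
Cox6b1: ctcctctcgcagCTTCCGGccagtcggaat
Cox6a1: cgtccccatttccgCTTCCGGcgcgccggt
Atp5j: tagctgagggacCCGGAAGcacttaccctc
They lie at chr4:116075071-116075100 (minus), chr8:83566726-83566755 (plus), chr7:30626125-30626154 (minus), chr5:115348959-115348988 (minus) and chr16:84835020-84835049 (minus). Each window overlaps a GENCODE M21 exon of its own gene, and that of Atp5j also an exon of Gabpa. The first 3 belong to genes that fell in both comparisons, and Atp5j rose in both, though with voom it was called in OSM only. Cox6a1 was called higher in OSM only, and in neither comparison after rescaling. A match is a run of letters and was not tested as a binding site.

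Markers of cell state and of other cells moved between the same groups. Among all genes 42.2% were higher and 25.9% lower in LIF and 42.9% and 25.4% in OSM. After rescaling these shares were 34.5% and 33.0% in LIF and 34.4% and 32.9% in OSM. The 7 ESC markers summed to 1898 to 1910 TPM in -LIF, 3219 to 3331 in LIF and 3032 to 3088 in OSM, with 6 higher and 1 lower in each cytokine group against -LIF in TPM. After rescaling 6 were higher and 1 lower in LIF, and 5 and 1 in OSM. The 5 markers of simple epithelium summed to 3027 to 3041 TPM in -LIF, 472 to 496 in LIF and 458 to 483 in OSM, all 5 lower in both. Of 18 fibroblast markers, which feeder cells would carry, 15 were higher and 3 lower in each in TPM. After rescaling 14 were higher and 3 lower in LIF and 15 and 3 in OSM. Their sums were 690 to 705 TPM in -LIF, 957 to 978 in LIF and 1225 to 1249 in OSM. In OSM against LIF 5 of them were higher and none lower, where 0.463% and 0.129% of all genes were. The 6 striated muscle markers, of which 3 passed the filter and were lower, summed to 18.8 to 19.2 TPM in -LIF and 1.54 to 2.63 in the others, opposite to the muscle isoform Cox6a2 and in the direction of the muscle isoform Cox7a1. No tested marker was at 0 in both libraries of a group. Their part in the changes of the subunits was not tested, and in these bulk samples fewer cells of a type and less RNA per cell cannot be told apart. Recovered depth was 18773811 to 26031901 reads per library.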

How the data were processed

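Per the labels and the methods of the study, the authors trimmed reads with Trimmomatic, aligned them to mm10 with HISAT2, counted them with featureCounts and deposited TPM for 28584 genes. Versions, annotation, strand and treatment of multi-mapping reads are not given in the sources used here. TPM of the 6 libraries were fitted as log2(TPM + 1) with limma 3.58.1 (R 4.3.3, lmFit and eBayes with trend, 3 groups in 1 fit, 3 residual degrees of freedom, 5.33 with the prior), keeping 18556 genes that reached 1 TPM in 2 or more libraries, with Benjamini-Hochberg adjustment over all of them. With 2 libraries against 2, an exact permutation test cannot give p below 0.333, so none was used. Fold changes on this scale understate those of low genes. Where TPM times the GENCODE M21 exon length over a library constant gave whole reads (95.4% of values within 0.02), these reads were used in limma-voom and for counts printed. Copies were found with blastn 2.17.0, and figures drawn with matplotlib 3.10.9. The members and lists were chosen with earlier results of these data known, and support nothing by themselves. The rule for named members took those past 2-fold, the extremes of each complex by change and by level, isoform families, catalytic core subunits and the lowest p in OSM against LIF. Ndufa12, Ndufb5, Ndufb7, Ndufb11, Cox6c2, Cox7c, Atp5j and Atp5l fall outside it and were named after their values were seen. Alternatives covered pseudocount, filter, trend, samples fitted, replicate block, scaling, mitochondrially encoded genes and each library left out. Voom and the adding of copies were chosen after seeing the data. One member counted here is not reported by name.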

Additional observations from a re-analysis of the deposited data

How the results depend on the processing

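Counts and medians of the members are given here for the settings that moved them. Rescaling by the median ratio gave 8 higher and 45 lower members in LIF against -LIF (median −0.244) and 11 higher and 46 lower in OSM against -LIF (median −0.207). Voom on recovered reads gave 6 and 47 (median −0.297) and 9 and 45 (median −0.27). Past 2-fold there were 4 and 5 members after rescaling and 7 and 5 with voom, 1 in each comparison with a filter of 5 TPM, which removes Cox6a2, and 1 in each with copies added, which takes out Ndufs5. In OSM against LIF voom gave 2 higher and all other settings 0. Among named members with a call under either setting, signs turned for Atp5b (−0.0683 rescaled and −0.0772 with voom in LIF, −0.109 and −0.118 in OSM), Cox7b (−0.157 and −0.165, −0.167 and −0.179), Ndufa5 (−0.149 and −0.162 in OSM), Ndufs3 (−0.172 and −0.184 in OSM), Uqcrc1 (−0.102 with voom in LIF, −0.123 and −0.13 in OSM) and Ndufb10 (−0.159 with voom in OSM). Signs also turned, with no call, after rescaling for Uqcrc1, Cox6a1, Ndufs8 and Ndufv2 in LIF and for Ndufb10, Ndufs8, Ndufv2, Cox6b2 and Atp5s in OSM, and with voom for Cox6a1 in LIF and Cox6b2 and Atp5s in OSM. These 2 settings recentre all genes, and no further cause was tested. Leaving out each library in turn gave 13 to 18 higher, 22 to 30 lower and 2 to 3 past 2-fold in LIF (median −0.098 to −0.0439), and 16 to 19, 21 to 25 and 1 to 2 in OSM (median −0.0607 to −0.0223). The 1 came without -LIF replicate 1 and without OSM replicate 1. Among the 44 members named by rule, a call at adjusted p under 0.05 was lost in at least 1 of these fits for Atp5b, Atp5c1, Atp5g1, Cox5b, Ndufs1, Sdhb and Uqcrq in LIF and for Atp5b, Atp5c1, Atp5g2 and Ndufb6 in OSM. Replicate numbers did not pair the libraries (correlations of deviations −0.0433, −0.0234 and 0.0265), and the fit with a replicate block gave 17 higher and 27 lower in LIF, 19 and 24 in OSM, and 0 in OSM against LIF. With 2 libraries a group, the median residual SD was 0.0862 on the log2 scale, and Cox6a2 rests on at most 15 reads a library.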
